A study of Homo sapiens with 12 samples.

Results

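The collagen and laminin genes were followed in T-cell leukemia cells with and without chidamide. They were taken as every row of the deposited expression table whose symbol is that of a collagen chain (COL, a type number, A and a chain number) or of a laminin chain (LAMA, LAMB or LAMC and a number). This rule found 51 genes among 25146, of which 41 encode collagen chains and 10 encode laminin chains. COL3A1, COL7A1, COL17A1, LAMA5 and LAMB3 were not analysed here. Chidamide is a benzamide inhibitor of histone deacetylases, enzymes that remove acetyl groups from histones, and the study was set up around its effect on T-cell acute lymphoblastic leukemia (T-ALL) lines. The 12 RNA sequencing libraries form 4 groups of 3, which are Molt-4 cells given 2 µM chidamide, untreated Molt-4 cells, Jurkat cells given 2 µM chidamide and untreated Jurkat cells. Both are established T-ALL lines and were grown in the same serum-containing medium with no stromal cells named. The treated libraries carry times of 48, 49 and 50 h in step with replicate numbers 1, 2 and 3, although the protocol gives 48 h. The letters M and J on the libraries were read as Molt-4 and Jurkat. The labels do not state whether replicates were grown apart, so the p-values reflect the scatter among the libraries at hand, which may be technical. Each line stands for itself, and with a single line of each kind a difference between lines is a difference between these cultures.

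Collagens are secreted proteins whose chains wind around each other into a triple helix, and the types differ in what they assemble into: fibrils, beaded filaments, networks or molecules that decorate fibrils. Laminins are cross-shaped secreted proteins, each made of an alpha, a beta and a gamma chain, and together with the type IV collagen network they form basement membranes. In marrow and thymus such matrix is mainly the product of stromal, endothelial and epithelial cells, while lymphoid cells bind it through integrins and other receptors. Some collagens are built of copies of the same chain and others of different chains, and type I collagen occurs in both forms, so the levels of partner chains are given side by side. Values are FPKM, fragments scaled by transcript length and by library size, a unit that corrects for gene length and so allows levels of different genes to be compared.

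Promoters are shown first for the 4 genes with the largest called changes in Molt-4 that have an entry, so that the genes of largest response can be set side by side. All 4 were called higher in both lines, but in Jurkat COL5A3, COL26A1 and LAMC1 changed less than COL5A1 and LAMB1. Of the 51 genes, 37 have an entry in the RefSeq promoter table (GRCh38.p14). COL1A1 and COL6A1, which with COL6A2 had the 3 largest changes in each line, are named only. Each sequence is the 250 bases upstream of the gene's start, read 5′ to 3′ on the gene's strand. Capitals mark GC boxes, the hexamer GGGCGG or its reverse complement CCGCCC, a binding motif of Sp1-type factors.
COL6A2, chr21:46097862-46098111, plus strand: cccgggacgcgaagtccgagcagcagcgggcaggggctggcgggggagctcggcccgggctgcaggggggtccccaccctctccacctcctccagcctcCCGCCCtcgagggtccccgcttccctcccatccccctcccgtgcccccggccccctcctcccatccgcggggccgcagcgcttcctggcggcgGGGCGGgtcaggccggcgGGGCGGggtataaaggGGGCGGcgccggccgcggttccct
COL5A3, chr19:10010505-10010754, minus strand: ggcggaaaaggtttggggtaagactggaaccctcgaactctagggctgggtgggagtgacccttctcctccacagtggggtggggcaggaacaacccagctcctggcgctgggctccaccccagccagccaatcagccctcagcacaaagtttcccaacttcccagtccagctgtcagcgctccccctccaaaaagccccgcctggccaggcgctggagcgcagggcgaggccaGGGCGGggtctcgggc
COL26A1, chr7:101362625-101362874, plus strand: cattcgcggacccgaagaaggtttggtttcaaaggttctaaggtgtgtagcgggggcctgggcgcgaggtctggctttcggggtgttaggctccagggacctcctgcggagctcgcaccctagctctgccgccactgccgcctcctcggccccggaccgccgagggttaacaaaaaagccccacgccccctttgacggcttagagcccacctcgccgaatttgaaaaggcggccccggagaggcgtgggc
LAMC1, chr1:183023170-183023419, plus strand: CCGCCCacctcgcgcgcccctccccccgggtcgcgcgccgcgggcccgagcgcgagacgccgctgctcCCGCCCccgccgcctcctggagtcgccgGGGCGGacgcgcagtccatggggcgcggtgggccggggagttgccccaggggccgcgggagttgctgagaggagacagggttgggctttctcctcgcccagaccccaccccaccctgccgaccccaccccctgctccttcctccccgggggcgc
The COL6A2 window holds 4 GC boxes, that of LAMC1 holds 3, that of COL5A3 holds 1 and that of COL26A1 holds 0. A GC box stood in 27 of the 49 windows of the collagen and laminin genes (55.1%; some genes have more than 1 window), against 42.6% of all 35116 promoter windows of the same length. The letters TATAAA on either strand occurred once in the COL6A2 window and in none of the other 3 windows. They stood in 6 of the 49 member windows and in 10.7% of all windows. The AP-1 motif TGANTCA, searched on both strands, stood in 2 member windows and in 6.57% of all windows. The COL6A2 and LAMC1 windows have a GC content of 79.6% each, that of COL5A3 has 66.0% and that of COL26A1 has 64.8%, where the median of all windows is 58.0%. These matches describe letters in a window and not binding.

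Matrix genes were scarce in the untreated lines and more abundant with chidamide. The FPKM of all 51 genes summed to 130 to 140 in the treated Molt-4 libraries, against 33.1 to 40.8 in the untreated Molt-4 libraries. In Jurkat the sums were 93.5 to 106 in the treated libraries and 22.2 to 31.5 in the untreated libraries. COL1A1 alone made up 24.3% to 27.0% of the sum in treated Molt-4 libraries and 0.0907% to 3.40% in untreated Molt-4 libraries, and 37.9% to 42.7% in treated Jurkat libraries and 1.62% to 7.86% in untreated Jurkat libraries. Without COL1A1 the sums were 97.8 to 102 in treated and 33.1 to 40.4 in untreated Molt-4 libraries, and 55.9 to 61.0 in treated and 20.8 to 31.0 in untreated Jurkat libraries. In each line the lowest treated sum lay above the highest untreated sum, with and without COL1A1. A mean of at least 1 FPKM was reached by 20 of the 51 genes in treated Molt-4 cells and by 5 in untreated Molt-4 cells, and by 13 in treated and 7 in untreated Jurkat cells. In libraries made from whole cultures, more cells that express a gene and more RNA per cell cannot be told apart.

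Tests were made with limma on log2(FPKM + 1) for the 13840 genes with at least 1 FPKM in at least 3 of the 12 libraries, and a gene was called at a Benjamini-Hochberg adjusted p under 0.05 over all of these. Of the 51 genes, 20 were tested, 17 collagens and 3 laminins. In Molt-4, 18 of the 20 were higher and 0 lower with chidamide, where 35.4% of all tested genes were called higher and 24.6% lower. In Jurkat, 13 of the 20 were higher and 0 lower, where 30.9% of all tested genes were called higher and 25.4% lower. All 13 were among the 18 of Molt-4, and COL4A5, COL6A5, COL9A3, COL27A1 and LAMB2 were called in Molt-4 only, with the difference of responses tested further on. All treated libraries lay above all untreated libraries for 19 of the 20 genes in Molt-4 (39.0% of all tested genes) and for 13 in Jurkat (33.3%). The median log2 change of the tested genes of the group was 1.30 in Molt-4 and 0.54 in Jurkat, and that of all tested genes was 0.08 in Molt-4 and 0.04 in Jurkat. Under quantile normalization, which gives every library the same distribution, the calls in Molt-4 were 13 higher and 2 lower among the 20 genes, and 3540 higher and 5039 lower among all tested genes in place of 4903 and 3401. That scaling put the median of all tested genes at -0.10 in Molt-4 and -0.05 in Jurkat. In Jurkat it left 7 of the 20 genes higher and 1 lower. Among all tested genes there it called 3589 higher and 4039 lower, in place of 4277 and 3509.

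The filter itself favours genes that are high with treatment: 10 of the 20 genes passed it only with the help of treated libraries, and COL5A1, COL5A3, COL6A2, COL6A3, COL26A1 and LAMC1 had no untreated library at 1 FPKM or more. Genes that pass in this way are favoured to differ in the line where they are high, although COL4A2 was called in neither line and COL6A5 in Molt-4 alone. The counts above are therefore given also for the other 10 genes, which reached 1 FPKM in at least 3 untreated libraries. Of these 10, 9 were higher with chidamide in Molt-4 and 5 in Jurkat, and 0 were lower in either line. The background over the 12503 genes of the same kind was 31.2% higher and 27.2% lower in Molt-4, and 27.6% higher and 28.0% lower in Jurkat. COL4A2 and COL5A3 lay just inside the filter, with 3 libraries at 1 FPKM or more. COL2A1, COL21A1 and LAMB4 lay just outside it, with 2.

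The libraries themselves were close within groups (Pearson r of log2 values 0.989 to 0.995). Untreated Jurkat replicate 3 stood furthest from the rest of its group, its log2 ratios to its fellow libraries having SDs of 0.332 and 0.337 where all other pairs lay at or under 0.269. Of the summed FPKM, the abundant 7SL RNA made up 10.1% in replicate 3 of untreated Molt-4 and 2.25% to 5.35% in the other libraries. Setting equal totals without 7SL RNA left 18 genes of the group higher in Molt-4 and 14 in Jurkat. Library depth is unknown, since FPKM holds no counts.

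**Figure D1:**
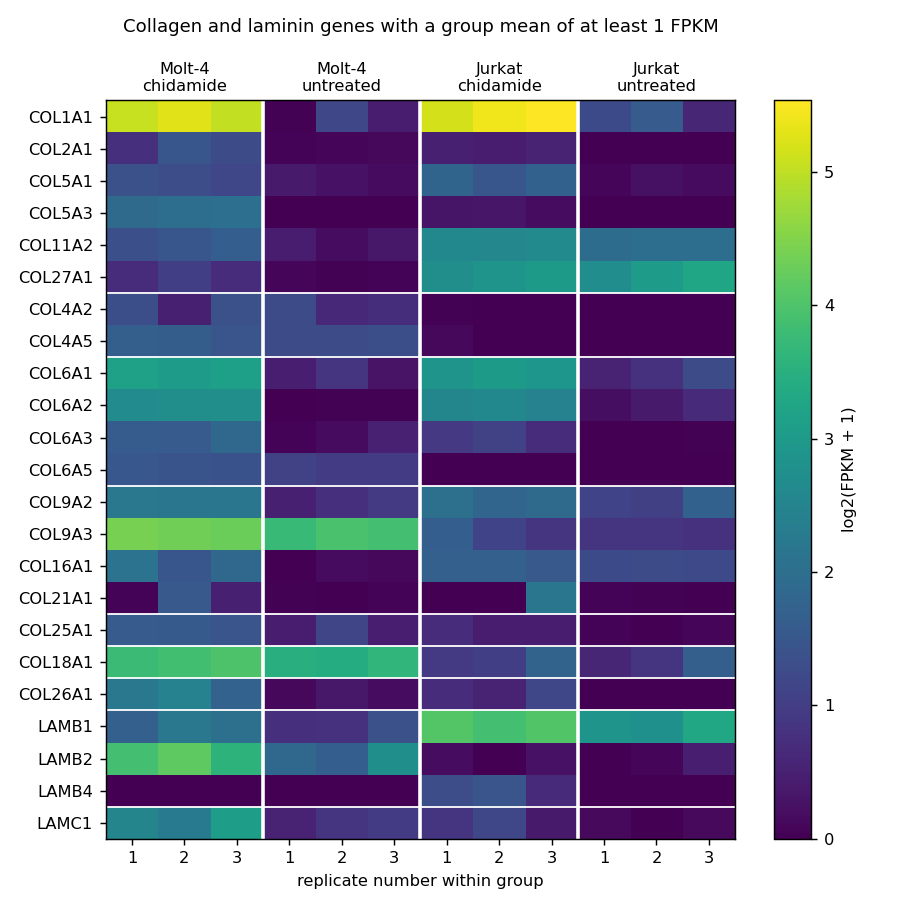
Levels of the 23 collagen and laminin genes with a group mean of at least 1 FPKM, as log2(FPKM + 1) on the color scale, with 1 row a gene in order of role (white lines part the roles) and 1 column a library. COL1A1 is brightest, in all 6 treated libraries, while COL9A3, COL18A1 and LAMB2 are brighter in Molt-4, and LAMB1 and COL27A1 in Jurkat.

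Fibrillar collagens, which build the rope-like fibrils of connective tissue, held the largest rise of the group. COL1A1 encodes the alpha-1 chain of type I collagen, the main protein of bone and tendon. It stood at 32.4, 37.9 and 31.7 FPKM in the treated Molt-4 libraries, against 0.03, 1.25 and 0.34 FPKM in the untreated Molt-4 libraries. In Jurkat it stood at 35.5, 41.5 and 45.4 FPKM in the treated libraries, against 1.38, 1.99 and 0.51 FPKM in the untreated libraries. Every treated library lay far above every untreated library of either line. The group means were 34.0 ± 3.41 FPKM in treated and 0.54 ± 0.634 FPKM in untreated Molt-4 cells, and 40.8 ± 4.99 FPKM in treated and 1.29 ± 0.744 FPKM in untreated Jurkat cells (SD, n = 3 each). The log2 change was 4.58 ± 0.28 in Molt-4 (SE, adjusted p = 4.22e-08) and 4.24 ± 0.28 in Jurkat (adjusted p = 1.17e-07). The ratios of the means, 63.0 in Molt-4 and 31.5 in Jurkat, rest on low untreated values that spread widely.

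The partner chain did not follow in level. COL1A2, the alpha-2 chain that joins COL1A1 in ordinary type I collagen, was listed at 0 in all 6 untreated libraries. It stood at 0.05, 0.09 and 0.06 FPKM in the treated Molt-4 libraries and at 0.37, 0.52 and 0.46 FPKM in the treated Jurkat libraries, so both treated groups lay above their untreated groups at a very low level. COL1A1 was 79.8 to 98.7 times as high as COL1A2 in the treated Jurkat libraries. In treated Molt-4 libraries the ratio was 422 to 649, on COL1A2 values rounded to 2 decimals. COL1A2 stayed under the filter of 1 FPKM.

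Type V collagen, which is built into type I fibrils and limits their width, was split between the lines. COL5A3 stood at 2.76, 2.98 and 3.04 FPKM in the treated Molt-4 libraries, against 0, 0 and 0.01 FPKM in the untreated Molt-4 libraries. Its Jurkat levels were 0.24, 0.27 and 0.13 FPKM in the treated libraries and was listed at 0 in all 3 untreated libraries. It rose by 1.97 ± 0.08 on the log2(FPKM + 1) scale in Molt-4 (SE, adjusted p = 1.86e-09) and by 0.28 ± 0.08 in Jurkat (adjusted p = 0.0122, and 0.0590 under quantile normalization). COL5A1, the chain common to most type V molecules, leaned the other way. It stood at 1.58, 1.46 and 1.27 FPKM in treated Molt-4 libraries, against 0.31, 0.21 and 0.12 FPKM in untreated Molt-4 libraries, and at 2.44, 1.78 and 2.29 FPKM in treated Jurkat libraries, against 0.05, 0.19 and 0.12 FPKM in untreated Jurkat libraries. No treated value overlapped an untreated value in either line. The log2 change was 1.01 ± 0.11 in Molt-4 (SE, adjusted p = 7.16e-06) and 1.50 ± 0.11 in Jurkat (adjusted p = 3.01e-07). COL5A2 averaged 0.67 ± 0.203 FPKM in treated and 0.113 ± 0.0306 FPKM in untreated Molt-4 cells, and 0.667 ± 0.200 FPKM in treated and 0.143 ± 0.0924 FPKM in untreated Jurkat cells (SD, n = 3 each), under the filter.

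COL11A2, a chain of the cartilage collagen XI, stood at 1.54, 1.78 and 2.16 FPKM in the treated Molt-4 libraries and at 0.36, 0.13 and 0.29 FPKM in the untreated Molt-4 libraries. In Jurkat it stood at 5.03, 4.88 and 5.21 FPKM in the treated libraries and at 2.91, 3.01 and 3.03 FPKM in the untreated libraries. The groups did not overlap in either line. COL11A2 rose by 1.16 ± 0.10 on the log2 scale in Molt-4 (SE, adjusted p = 1.33e-06) and by 0.60 ± 0.10 in Jurkat (adjusted p = 0.000361, and 0.104 under quantile normalization). COL27A1, a fibrillar collagen of cartilage, was mainly a Jurkat transcript. It averaged 6.33 ± 0.711 FPKM in treated and 7.20 ± 1.52 FPKM in untreated Jurkat cells (SD, n = 3 each), a log2 difference of -0.15 ± 0.14 that was not called (SE, adjusted p = 0.405) and was called lower under quantile normalization (adjusted p = 0.0351). In Molt-4 cells COL27A1 averaged 0.763 ± 0.248 FPKM with chidamide and 0.0433 ± 0.0153 FPKM without (log2 change 0.75 ± 0.14, SE, adjusted p = 0.000745), a call lost under quantile normalization (adjusted p = 0.543). COL2A1, the main collagen of cartilage fibrils, was below the filter. It stood at 0.68, 1.81 and 1.42 FPKM in treated and at 0.04, 0.06 and 0.08 FPKM in untreated Molt-4 libraries, and at 0.41, 0.34 and 0.44 FPKM in treated Jurkat libraries and at 0 in untreated Jurkat libraries.

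**Figure D2:**
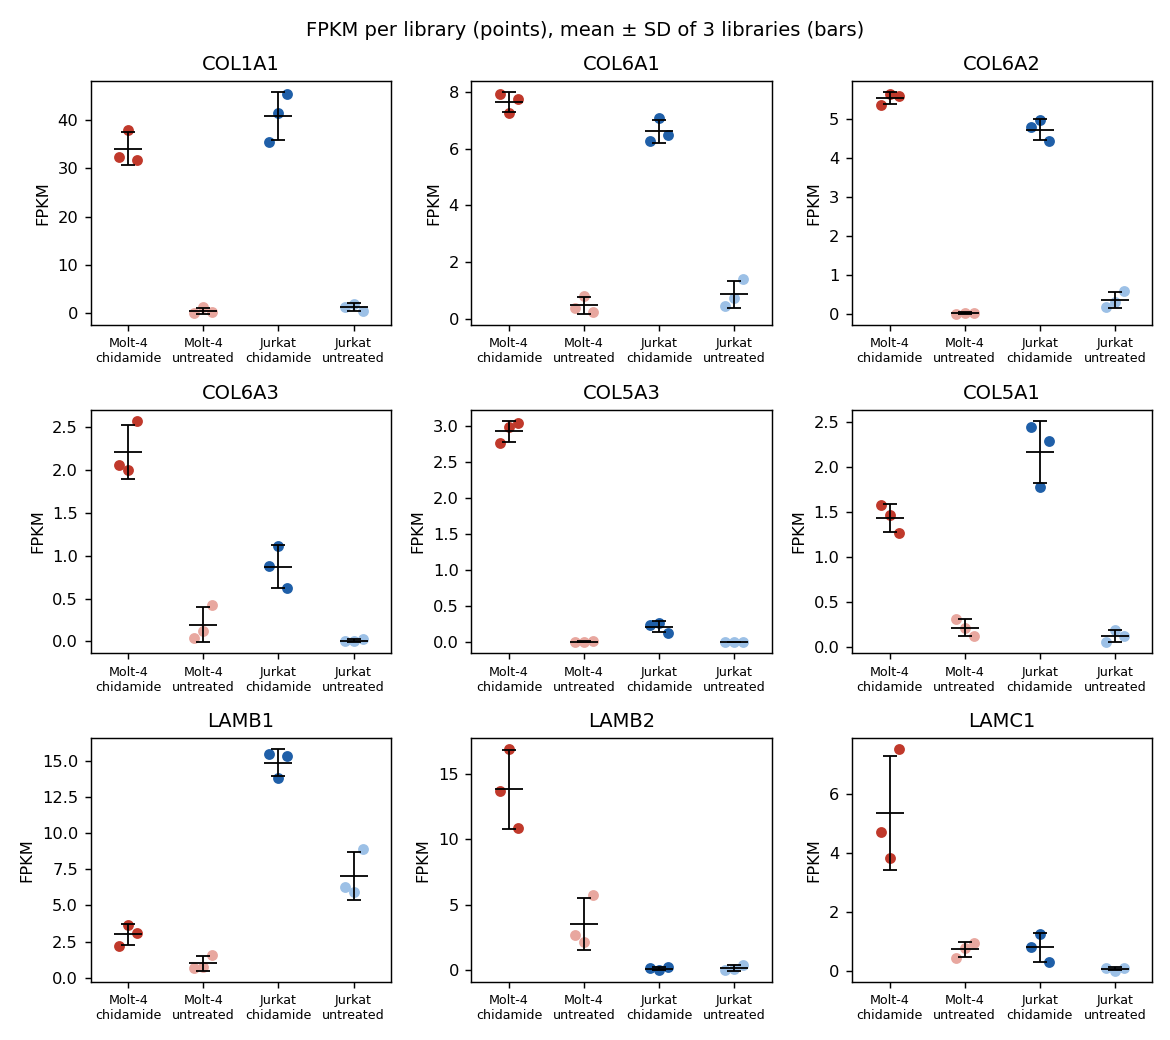
FPKM of 9 collagen and laminin genes in each of the 12 libraries, with the 4 groups along the horizontal axis and a vertical scale of its own for each gene. Points are libraries, and bars give the mean and SD of 3. COL1A1, COL6A1 and COL6A2 were raised in both lines, whereas COL5A3 reached 2.76 to 3.04 FPKM in treated Molt-4 libraries and at most 0.27 FPKM in treated Jurkat libraries.

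Collagen VI forms beaded filaments around cells and near basement membranes, and its classical molecule joins the chains COL6A1, COL6A2 and COL6A3. All 3 rose in both lines. COL6A1 stood at 7.93, 7.25 and 7.74 FPKM in the treated Molt-4 libraries and at 0.39, 0.81 and 0.23 FPKM in the untreated Molt-4 libraries. Its Jurkat levels were 6.28, 7.07 and 6.47 FPKM in the treated libraries and at 0.46, 0.73 and 1.39 FPKM in the untreated libraries. Treated and untreated values of COL6A1 were well apart in both lines. The log2 change of COL6A1 was 2.57 ± 0.17 in Molt-4 (SE, adjusted p = 1.25e-07) and 2.06 ± 0.17 in Jurkat (adjusted p = 1.07e-06). COL6A2 stood at 5.38, 5.66 and 5.61 FPKM in the treated Molt-4 libraries and at 0, 0.03 and 0.02 FPKM in the untreated Molt-4 libraries. In Jurkat it stood at 4.80, 4.97 and 4.44 FPKM in the treated libraries and at 0.16, 0.31 and 0.58 FPKM in the untreated libraries. COL6A2 rose by 2.69 ± 0.11 on the log2 scale in Molt-4 (SE, adjusted p = 1.62e-09) and by 2.10 ± 0.11 in Jurkat (adjusted p = 1.87e-08).

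COL6A1 and COL6A2 lie next to each other on chromosome 21 in the same orientation. Their levels kept a narrow range of ratios in treated cells: COL6A1 was 1.28 to 1.47 times as high as COL6A2 in treated Molt-4 libraries and 1.31 to 1.46 times in treated Jurkat libraries. In untreated Jurkat libraries the ratio was 2.35 to 2.88, on levels of at most 1.39 FPKM. COL6A3, the longest chain of the classical molecule, stayed lower than both. It stood at 2.06, 2.00 and 2.58 FPKM in treated Molt-4 libraries and at 0.04, 0.12 and 0.43 FPKM in untreated Molt-4 libraries, and at 0.88, 1.12 and 0.62 FPKM in treated Jurkat libraries and at 0, 0 and 0.03 FPKM in untreated Jurkat libraries. Its log2 change was 1.43 ± 0.14 in Molt-4 (SE, adjusted p = 2.34e-06) and 0.88 ± 0.14 in Jurkat (adjusted p = 0.000154). COL6A5, a chain that can take the place of COL6A3, was a Molt-4 transcript. It averaged 1.72 ± 0.0917 FPKM in treated and 1.02 ± 0.0737 FPKM in untreated Molt-4 cells (SD, n = 3 each), and no Jurkat library held more than 0.01 FPKM. The log2 change of COL6A5 in Molt-4 was 0.43 ± 0.08 (SE, adjusted p = 0.000459), and it turned to -0.27 and was called lower under quantile normalization (adjusted p = 0.0123). COL6A6, its neighbour on chromosome 3, stayed at or under 0.0467 FPKM in every group mean.

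The fibril-associated collagens sit on the surface of fibrils. COL9A2 and COL9A3 are chains of collagen IX, which coats cartilage fibrils. COL9A2 stood at 3.65, 3.49 and 3.49 FPKM in treated Molt-4 libraries, against 0.41, 0.71 and 0.91 FPKM in untreated Molt-4 libraries, and at 3.11, 2.51 and 2.77 FPKM in treated Jurkat libraries, against 1.15, 1.08 and 2.29 FPKM in untreated Jurkat libraries. The groups of each line did not overlap. COL9A2 rose by 1.45 ± 0.17 on the log2 scale in Molt-4 (SE, adjusted p = 1.26e-05) and by 0.63 ± 0.17 in Jurkat (adjusted p = 0.00676, and 0.392 under quantile normalization). COL9A3 was the most abundant collagen of untreated Molt-4 cells. It stood at 20.2, 19.1 and 18.7 FPKM in treated Molt-4 libraries, against 12.4, 14.5 and 13.7 FPKM in untreated Molt-4 libraries, and at 2.16, 1.16 and 0.77 FPKM in treated Jurkat libraries, against 0.78, 0.79 and 0.74 FPKM in untreated Jurkat libraries. The Molt-4 groups were apart while the Jurkat groups overlapped. Its log2 change was 0.49 ± 0.16 in Molt-4 (SE, adjusted p = 0.0223) and 0.37 ± 0.16 in Jurkat (adjusted p = 0.0711). The Molt-4 call of COL9A3 was lost without treated replicate 1 (adjusted p = 0.0640), without untreated replicate 1 (0.0729) and with a pseudocount of 0.1 (0.107), and a Jurkat call was gained without treated replicate 3 (0.00697). COL9A3 was 5.37 to 5.53 times as high as COL9A2 in treated Molt-4 libraries and 15.0 to 30.3 times in untreated Molt-4 libraries. The third chain, COL9A1, had a group mean of at most 0.12 FPKM. COL9A3 overlaps TCFL5 on the opposite strand, and the strandedness of the counting is not given, so reads of that stretch cannot be assigned. TCFL5 moved the opposite way in Molt-4, with a log2 change of -0.42 ± 0.10 (SE, adjusted p = 0.00286).

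COL16A1, a fibril-associated collagen of several connective tissues, stood at 3.28, 1.79 and 2.65 FPKM in the treated Molt-4 libraries, against 0, 0.12 and 0.09 FPKM in the untreated Molt-4 libraries. Its Jurkat levels were 2.23, 2.26 and 1.91 FPKM in the treated libraries, against 1.38, 1.45 and 1.34 FPKM in the untreated libraries. Treated values were above untreated values in both lines, by a wide gap in Molt-4 and a narrow gap in Jurkat. The log2 change of COL16A1 was 1.72 ± 0.14 in Molt-4 (SE, adjusted p = 4.68e-07) and 0.39 ± 0.14 in Jurkat (adjusted p = 0.0281). The Jurkat call was lost without treated replicate 1 (adjusted p = 0.0755), without treated replicate 2 (0.0790) and without each untreated replicate in turn (0.0641, 0.0514 and 0.0620), and the sign turned under quantile normalization (-0.10). COL21A1, another member of the class, was uneven and not tested: it stood at 0.04, 1.91 and 0.41 FPKM in treated Molt-4 libraries and at 0, 0 and 3.49 FPKM in treated Jurkat libraries, against at most 0.04 FPKM in the untreated libraries of either line. It overlaps the pseudogene DHFRP6 on the same strand, and the part of that overlap in these values was not tested. COL12A1, COL14A1, COL20A1 and COL22A1 had group means of at most 0.227 FPKM, and COL19A1 was listed at 0 in all 12 libraries.

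The type IV collagens form the network of basement membranes, and their genes lie in head-to-head pairs. Of these, COL4A5 and COL4A2 reached 1 FPKM, both in Molt-4. COL4A5 stood at 2.19, 2.09 and 1.74 FPKM in treated Molt-4 libraries and at 1.44, 1.41 and 1.51 FPKM in untreated Molt-4 libraries, while its partner COL4A6 averaged 0.207 ± 0.289 FPKM and 0.05 ± 0.052 FPKM there (SD, n = 3 each). In Jurkat COL4A5 stood at 0.09, 0 and 0 FPKM in the treated libraries and at 0 in the untreated libraries. The COL4A5 groups of Molt-4 did not overlap, with a log2 change of 0.29 ± 0.09 (SE, adjusted p = 0.0128) that turned to -0.40 and was called lower under quantile normalization (adjusted p = 0.00255) and was not called with a pseudocount of 0.1 (adjusted p = 0.172). COL4A2 averaged 1.17 ± 0.656 FPKM in treated and 0.857 ± 0.466 FPKM in untreated Molt-4 cells, with overlapping libraries, and at most 0.02 FPKM in Jurkat libraries. Its log2 change in Molt-4 was 0.20 ± 0.22 (SE, adjusted p = 0.448), was called higher without treated replicate 2 (adjusted p = 0.0237) and turned to -0.46 under quantile normalization. COL4A1, the partner of COL4A2 in the commonest type IV molecule, had a group mean of at most 0.123 FPKM. COL4A4 and COL4A3 leaned to Jurkat: COL4A4 averaged 0.71 ± 0.05 FPKM in treated and 0.133 ± 0.0208 FPKM in untreated Jurkat cells, and COL4A3 averaged 0.267 ± 0.147 FPKM and 0.233 ± 0.0971 FPKM there (SD, n = 3 each).

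COL18A1, a basement membrane collagen whose C-terminal fragment is endostatin, was abundant in Molt-4 with or without drug. It stood at 12.7, 13.5 and 14.8 FPKM in treated Molt-4 libraries and at 10.0, 9.83 and 11.6 FPKM in untreated Molt-4 libraries, and the log2 difference of 0.36 ± 0.26 was not called (SE, adjusted p = 0.261; 0.0129 when only the Molt-4 libraries were fitted). In Jurkat it averaged 1.45 ± 0.834 FPKM in treated and 1.16 ± 0.906 FPKM in untreated cells (SD, n = 3 each; adjusted p = 0.532). COL18A1 overlaps SLC19A1 and antisense genes on the opposite strand, and SLC19A1 was lower with chidamide in both lines (log2 change -1.15 ± 0.13 in Molt-4 and -1.40 ± 0.13 in Jurkat, SE). The related COL15A1 was the highest of the genes with no group mean at 1 FPKM, at 0.98 ± 0.11 FPKM in treated and 0.17 ± 0.132 FPKM in untreated Molt-4 cells.

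COL26A1, a secreted collagen described in mouse testis and ovary, stood at 3.67, 4.47 and 2.32 FPKM in the treated Molt-4 libraries and at 0.08, 0.29 and 0.14 FPKM in the untreated Molt-4 libraries. In Jurkat it stood at 0.62, 0.46 and 1.27 FPKM in the treated libraries and at 0 in the untreated libraries. Treated and untreated values were apart in both lines. COL26A1 rose by 1.91 ± 0.19 on the log2(FPKM + 1) scale in Molt-4 (SE, adjusted p = 3.11e-06) and by 0.81 ± 0.19 in Jurkat (adjusted p = 0.00292). COL25A1, a transmembrane collagen known from neurons and from amyloid plaques, averaged 1.90 ± 0.125 FPKM in treated and 0.657 ± 0.505 FPKM in untreated Molt-4 cells. In Jurkat it averaged 0.44 ± 0.156 FPKM in treated and 0.0333 ± 0.0306 FPKM in untreated cells (SD, n = 3 each). The log2 change of COL25A1 was 0.85 ± 0.17 in Molt-4 (SE, adjusted p = 0.000873, and 0.443 under quantile normalization) and 0.47 ± 0.17 in Jurkat (adjusted p = 0.0297). Its Jurkat call was lost without treated replicate 1 (adjusted p = 0.108), without untreated replicate 1 (0.0629), without untreated replicate 2 (0.0758) and under quantile normalization (0.537).

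The laminin genes that reached 1 FPKM encode beta and gamma chains. Of the alpha chains only LAMA1 to LAMA4 could be looked at, since LAMA5, a widespread alpha chain, was not analysed here. LAMB1, the beta chain of the widespread laminins, was the main laminin of Jurkat. It stood at 2.23, 3.65 and 3.11 FPKM in treated Molt-4 libraries, against 0.67, 0.74 and 1.58 FPKM in untreated Molt-4 libraries, and at 15.5, 13.8 and 15.3 FPKM in treated Jurkat libraries, against 6.25, 5.90 and 8.93 FPKM in untreated Jurkat libraries. The groups of each line were apart. LAMB1 rose by 1.01 ± 0.19 on the log2 scale in Molt-4 (SE, adjusted p = 0.000652, and 0.0795 under quantile normalization) and by 1.00 ± 0.19 in Jurkat (adjusted p = 0.000767). It overlaps DLD on the opposite strand, whose log2 change was -0.50 ± 0.08 in Molt-4 and -0.29 ± 0.08 in Jurkat (SE). LAMB2, the beta chain of laminins at synapses and in kidney, was a Molt-4 transcript. It stood at 13.7, 16.9 and 10.9 FPKM in treated Molt-4 libraries, against 2.64, 2.14 and 5.76 FPKM in untreated Molt-4 libraries, and at 0.13, 0 and 0.20 FPKM in treated Jurkat libraries, against 0, 0.07 and 0.38 FPKM in untreated Jurkat libraries. The Molt-4 groups did not overlap and the Jurkat groups did. LAMB2 rose by 1.78 ± 0.25 on the log2 scale in Molt-4 (SE, adjusted p = 6.84e-05) and its Jurkat difference of -0.04 ± 0.25 was not called (adjusted p = 0.915).

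LAMC1, the gamma chain shared by most laminins, stood at 4.71, 3.84 and 7.54 FPKM in the treated Molt-4 libraries, against 0.45, 0.79 and 0.95 FPKM in the untreated Molt-4 libraries. Its Jurkat levels were 0.81, 1.27 and 0.31 FPKM in the treated libraries, against 0.11, 0.01 and 0.10 FPKM in the untreated libraries. No treated value of LAMC1 fell among the untreated values of its line. The log2 change of LAMC1 was 1.85 ± 0.22 in Molt-4 (SE, adjusted p = 1.81e-05) and 0.71 ± 0.22 in Jurkat (adjusted p = 0.0169). Its Jurkat call was lost without treated replicate 2 (adjusted p = 0.0777), without untreated replicate 2 (0.0507) and under quantile normalization (0.440). LAMB4, which neighbours LAMB1 on chromosome 7, was listed at 0 in all Molt-4 libraries and in untreated Jurkat libraries and stood at 1.46, 1.73 and 0.60 FPKM in treated Jurkat libraries. LAMA1 to LAMA4 together summed to 0.06 to 0.22 FPKM in treated and 0.01 to 0.23 FPKM in untreated Molt-4 libraries, and to 0.48 to 0.64 FPKM in treated and 0.21 to 0.40 FPKM in untreated Jurkat libraries. The gamma chain LAMC3 had group means of at most 0.317 FPKM.

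**Figure D3:**
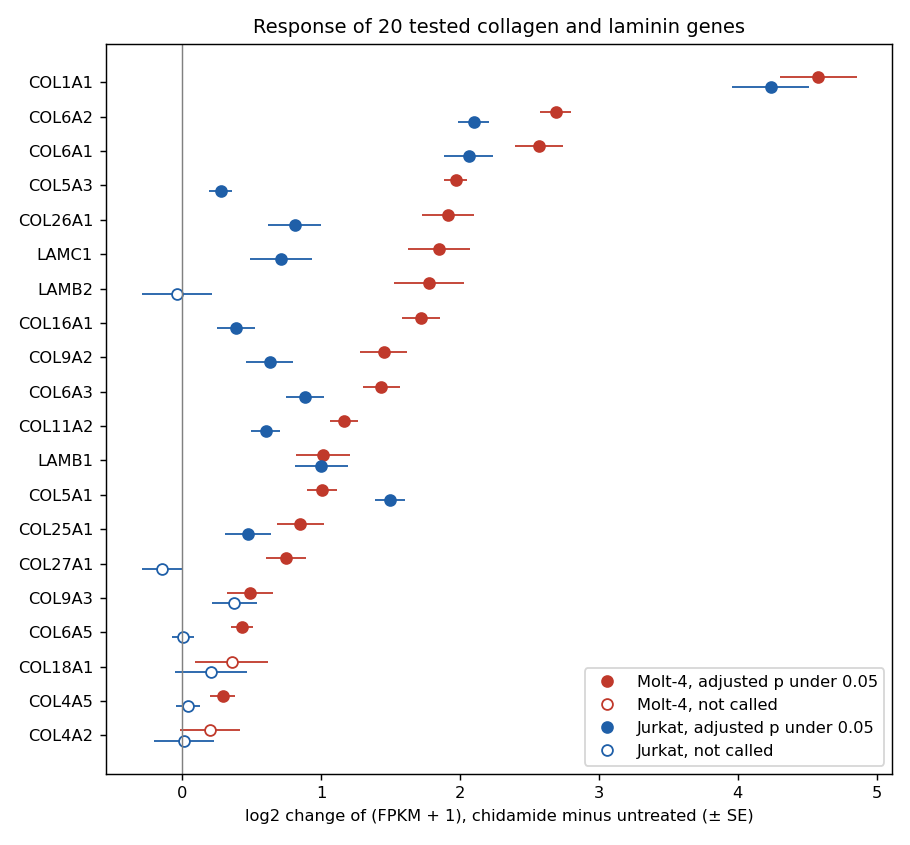
Log2 change of (FPKM + 1) with chidamide, chidamide minus untreated, for the 20 tested genes in Molt-4 (red) and Jurkat (blue), with SE bars, ordered by the Molt-4 change. Filled points were called at an adjusted p under 0.05 over all 13840 genes. No gene was called lower, and LAMB2, COL5A3 and COL16A1 show the widest gaps between the lines.

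The responses of the lines were then compared by the interaction of line and treatment. The response of 11 of the 20 genes was greater in Molt-4 and that of 1 gene was smaller, where 19.8% of all tested genes had a greater and 12.1% a smaller response in Molt-4. Under quantile normalization 8 genes of the group had a greater and 2 a smaller response, with 2271 and 2678 of all tested genes in place of 2745 and 1671. LAMB2 had the largest difference, 1.82 ± 0.36 on the log2 scale (SE, adjusted p = 0.00214). COL5A3 followed with 1.69 ± 0.12 (adjusted p = 7.71e-07), COL16A1 with 1.33 ± 0.19 (adjusted p = 0.000259), LAMC1 with 1.14 ± 0.32 (adjusted p = 0.0161) and COL26A1 with 1.10 ± 0.27 (adjusted p = 0.00759). COL5A1 was the gene with the smaller response in Molt-4 (difference -0.49 ± 0.15, adjusted p = 0.0295), a call lost without treated Jurkat replicate 1 or 3, untreated Jurkat replicate 1, treated Molt-4 replicate 3 or untreated Molt-4 replicate 1 or 2 (adjusted p 0.0520 to 0.0724). COL6A2 differed by 0.59 ± 0.15 (adjusted p = 0.0123), while COL6A1 differed by 0.51 ± 0.25 and was not called (adjusted p = 0.144). Under quantile normalization the difference of COL6A1 was 0.70 and was called (adjusted p = 0.0263). COL27A1 (0.90 ± 0.20), COL9A2 (0.82 ± 0.24), COL11A2 (0.56 ± 0.15), COL6A3 (0.55 ± 0.19) and COL6A5 (0.43 ± 0.11) were the other genes with a greater response in Molt-4. With a pseudocount of 0.1 the calls of LAMB2 (adjusted p = 0.0687), COL26A1 (0.346), LAMC1 (0.638), COL6A3 (0.951), COL6A5 (0.0854) and COL5A1 (0.0710) were lost, and under quantile normalization those of COL11A2 (0.207), COL27A1 (0.0756), COL6A3 (0.361) and COL6A5 (0.165). The call of COL6A3 was also lost with any single library left out (adjusted p 0.0527 to 0.109) except treated Jurkat replicate 2 and untreated Molt-4 replicate 3, and over all alternatives its adjusted p was 0.0126 to 0.951. Of the genes called in Molt-4 and not in Jurkat, COL4A5 (0.25 ± 0.12, adjusted p = 0.152) and COL9A3 (0.11 ± 0.23, adjusted p = 0.751) had no called difference. For COL1A1 the difference was 0.35 ± 0.39 (adjusted p = 0.543) and for LAMB1 it was 0.01 ± 0.27 (adjusted p = 0.980). A p that misses the threshold does not show that either gene responded alike in both lines. COL25A1 had a difference of 0.38 ± 0.24 (adjusted p = 0.258), called without untreated Molt-4 replicate 2 (0.00901). Of the 10 genes that pass the filter in untreated libraries, 5 had a greater response in Molt-4 and 0 a smaller response, beside 18.5% and 11.7% of all such genes.

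Without chidamide the lines differed in many of these genes, as they did in many of all tested genes. Of the 20 genes, 8 were higher and 6 lower in untreated Molt-4 than in untreated Jurkat cells, where 27.9% of all tested genes were higher and 37.5% lower (7 and 8 genes of the group under quantile normalization). Untreated libraries did not overlap between the lines for 16 genes, 10 of them higher in Molt-4 (28.7% of all tested genes) and 6 lower (37.9%). COL9A3 and COL18A1 led in untreated Molt-4, at 13.5 ± 1.04 and 10.5 ± 0.944 FPKM, against 0.77 ± 0.0265 and 1.16 ± 0.906 FPKM in untreated Jurkat cells (SD, n = 3 each). Their log2 differences were 3.03 ± 0.16 (SE, adjusted p = 7.96e-09) and 2.48 ± 0.26 (adjusted p = 3.86e-06). LAMB2, COL4A5, COL6A5, COL4A2, COL25A1 and LAMC1 were also higher in untreated Molt-4. COL27A1 and LAMB1 led in untreated Jurkat: COL27A1 averaged 0.0433 ± 0.0153 FPKM in untreated Molt-4 and 7.20 ± 1.52 FPKM in untreated Jurkat cells (log2 difference -2.96 ± 0.14, adjusted p = 2.92e-09). LAMB1 averaged 0.997 ± 0.506 FPKM in untreated Molt-4 and 7.03 ± 1.66 FPKM in untreated Jurkat cells (log2 difference -2.02 ± 0.19, adjusted p = 1.54e-06). COL11A2, COL16A1, COL9A2 and COL6A2 were also lower in untreated Molt-4. COL9A2 had an adjusted p of 0.0514 when untreated Molt-4 replicate 1 was left out, and the call of LAMC1 was lost without untreated Jurkat replicate 2 (0.0511) or untreated Molt-4 replicate 3 (0.0649) and under quantile normalization (0.0988). COL1A1 was not called between the untreated lines (log2 difference -0.60 ± 0.28, adjusted p = 0.0747), but was called without untreated Jurkat replicate 3 (0.0123) or untreated Molt-4 replicate 2 (0.00699). COL6A1 likewise was not called (-0.32 ± 0.17, adjusted p = 0.125), but was called without untreated Jurkat replicate 1 (0.0308) or untreated Molt-4 replicate 2 (0.0335). Both contrasts within the lines and the contrast between lines use the same untreated libraries.

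Of the 31 genes under the filter, 30 were above 0 in at least 1 library. All treated libraries were above all untreated libraries for 10 of them in Molt-4 and for 15 in Jurkat, and for 0 the order was the opposite. Of all 6264 genes under the filter and above 0, 26.0% were above in Molt-4 and 20.8% in Jurkat. The opposite order was rare among them as well, at 1.9% in Molt-4 and 2.09% in Jurkat. A fit with no filter, which takes in the tested genes as well, called 25 of the 50 genes above 0 higher in Molt-4 and 24 in Jurkat. Over all 20104 genes above 0 the shares were 30.5% and 25.1%. Of the 30 genes under the filter, that fit called 7 higher in Molt-4 and 11 in Jurkat, and 0 lower in either line. The 28 genes with no group mean at 1 FPKM had at most 1.09 FPKM in any library, reached by COL15A1.

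Collagen chains need a set of enzymes and carriers to be folded, trimmed and crosslinked, and this list was described from the same fit. In this list and those that follow, the filter likewise favours genes that are high with treatment. No count restricted to genes that pass in untreated libraries was made for these lists. Of 27 tested genes for collagen processing and crosslinking, 13 were higher and 1 lower in Molt-4, where 35.4% of all tested genes were higher and 24.6% lower. In Jurkat 4 were higher and 6 lower, where 30.9% of all tested genes were higher and 25.4% lower, so the share higher lay under that of all genes. In Molt-4, PCOLCE, an enhancer of procollagen trimming, averaged 56.7 ± 1.40 FPKM with chidamide and 15.0 ± 1.20 FPKM without (log2 change 1.86, adjusted p = 4.97e-09). P4HA2, a subunit of prolyl 4-hydroxylase, averaged 16.6 ± 1.17 FPKM with chidamide and 4.53 ± 0.457 FPKM without (log2 change 1.67, adjusted p = 6.88e-08). P3H3 and P3H4, of the prolyl 3-hydroxylase family, had log2 changes of 1.63 and 2.13 in Molt-4. In Jurkat the 6 falls were smaller in size than the 4 rises, and these rises were those of LOXL3 and LOXL2, lysyl oxidases that crosslink collagen (log2 changes 1.72 and 0.97), of FKBP10, a collagen chaperone (1.68), and of P3H4 (0.92). The median log2 change of the list was 0.26 in Molt-4 and 0.05 in Jurkat, beside 0.08 and 0.04 over all tested genes. The response was greater in Molt-4 for 12 of the 27 genes and smaller for 0, beside 19.8% and 12.1% of all tested genes.

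Of 17 tested collagen and laminin receptors, 14 were higher and 2 lower in Molt-4, beside 35.4% and 24.6% of all tested genes. In Jurkat 12 were higher and 0 lower, beside 30.9% and 25.4%. The median log2 changes of the list were 0.95 in Molt-4 and 0.94 in Jurkat. ITGA6, the alpha chain of laminin-binding integrins, averaged 77.5 ± 3.28 FPKM in treated and 11.3 ± 2.01 FPKM in untreated Molt-4 cells, and 32.3 ± 3.47 FPKM in treated and 7.03 ± 2.46 FPKM in untreated Jurkat cells (SD, n = 3 each). ITGA7, a further laminin-binding chain, averaged 17.1 ± 0.522 FPKM in treated and 1.15 ± 0.520 FPKM in untreated Molt-4 cells, and 20.4 ± 2.95 FPKM in treated and 3.03 ± 0.685 FPKM in untreated Jurkat cells. In Molt-4 the laminin receptors BCAM (log2 change 2.91) and ITGA3 (2.26) rose as well. In Jurkat the collagen-binding integrin chain ITGA1 rose by 1.35 on the log2 scale. LAIR2, a soluble collagen-binding decoy, averaged 12.6 ± 3.01 FPKM in treated Jurkat cells and was listed at 0 in the untreated Jurkat libraries.

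Of 22 basement membrane and matrix partners 10 were tested, of which 9 were higher and 0 lower in Molt-4 (median log2 change 1.21). In Jurkat 6 of the 10 were higher and 0 lower (median 0.45). These counts are to be read against the same shares of all tested genes and with the same limit of the filter. SPARC, a collagen-binding glycoprotein, averaged 100.2 ± 4.69 FPKM in treated and 12.6 ± 2.24 FPKM in untreated Molt-4 cells (log2 change 2.91, adjusted p = 3.50e-09). HSPG2, the basement membrane proteoglycan perlecan, averaged 22.3 ± 0.617 FPKM in treated and 4.24 ± 0.970 FPKM in untreated Molt-4 cells, and 2.00 ± 0.422 FPKM in treated and 0.323 ± 0.146 FPKM in untreated Jurkat cells. Fibronectin (FN1) averaged 24.7 ± 1.00 FPKM in treated and 6.12 ± 0.731 FPKM in untreated Molt-4 cells, and 11.5 ± 1.22 FPKM in treated and 2.19 ± 1.19 FPKM in untreated Jurkat cells. FRAS1, a basement membrane protein of epithelia, had log2 changes of 1.69 in Molt-4 and 1.97 in Jurkat, and FBLN1, encoding fibulin-1, had 1.17 in Jurkat. DCN and LUM, small proteoglycans of fibrils made by fibroblasts, were listed at 0 in Jurkat and in untreated Molt-4 and had means of 0.0533 and 0.107 FPKM in treated Molt-4 cells. All 22 partners summed to 206 to 227 FPKM in treated and 59.1 to 66.1 FPKM in untreated Molt-4 libraries. In Jurkat the sums were 178 to 194 FPKM in treated and 131 to 150 FPKM in untreated libraries.

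Of 9 tested collagenases, gelatinases and tissue inhibitors of metalloproteinases, 6 were higher and 1 lower in Molt-4 (median log2 change 0.67), and 8 were higher and 1 lower in Jurkat (median 1.10). TIMP1 averaged 291 ± 4.92 FPKM in treated and 81.1 ± 4.41 FPKM in untreated Molt-4 cells, and 6.30 ± 0.409 FPKM in treated and 0.397 ± 0.115 FPKM in untreated Jurkat cells. TIMP2 was lower in treated Molt-4 cells (21.3 ± 1.08 FPKM, against 40.3 ± 1.54 FPKM in untreated Molt-4 cells). TIMP3 and the membrane-bound MMP15 were higher in Molt-4 (log2 changes 0.98 and 1.23), and MMP2, MMP17 and TIMP3 in Jurkat (2.01, 1.89 and 1.13). In the TGF-beta pathway, a regulator of collagen transcription in fibroblasts, 17 of 20 tested genes were higher and 0 lower in Molt-4 (median log2 change 0.83), and 16 were higher and 3 lower in Jurkat (median 0.73). Over all tested genes 35.4% were higher and 24.6% lower in Molt-4 (median 0.08), and 30.9% were higher and 25.4% lower in Jurkat (median 0.04). SMAD7, its feedback inhibitor, averaged 10.9 ± 2.42 FPKM in treated and 1.20 ± 0.466 FPKM in untreated Molt-4 cells, and 5.28 ± 0.426 FPKM in treated and 0.383 ± 0.457 FPKM in untreated Jurkat cells. SKIL, another inhibitor of the pathway, had log2 changes of 1.91 in Molt-4 and 1.96 in Jurkat. LTBP4, which binds latent TGF-beta, and the receptor ACVRL1 rose in Molt-4 (log2 changes 1.93 and 2.06). The receptor TGFBR1 rose (2.03) and the inhibitory SMAD6 fell (-1.72) in Jurkat.

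**Figure D4:**
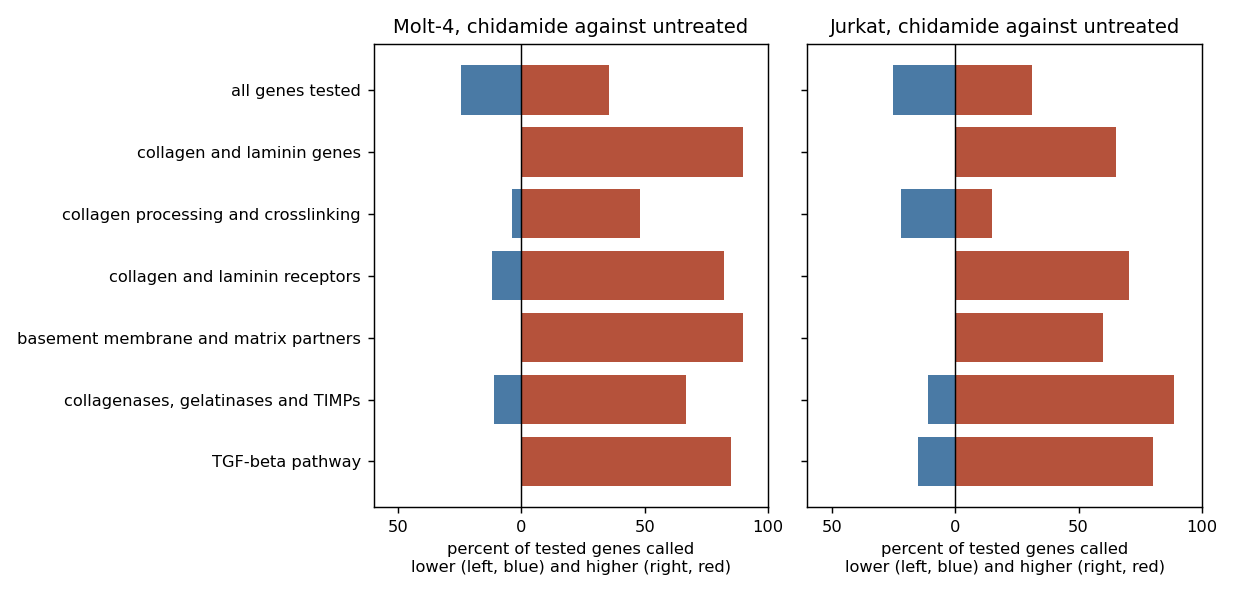
Percent of the tested genes of each list called higher (red, to the right) and lower (blue, to the left) with chidamide in Molt-4 (left panel) and Jurkat (right panel), beside all 13840 genes tested. Collagen processing genes were called higher for 13 of 27 in Molt-4 and for 4 of 27 in Jurkat, while receptors were called higher for 14 and 12 of 17.

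Markers of other cell types were measured beside these results. Their counts are to be read beside all tested genes, of which 35.4% were higher and 24.6% lower in Molt-4. In Jurkat these shares were 30.9% and 25.4%. Among these markers too, the filter favours genes that are high with treatment. T-lineage markers were present throughout: all 17 were tested, and their FPKM summed to 1646 to 1684 in treated and 1655 to 1710 in untreated Molt-4 libraries, and to 2046 to 2120 in treated and 2805 to 2869 in untreated Jurkat libraries. Of them 9 were higher and 6 lower in Molt-4 (CD28, GATA3 and LAT higher, ZAP70 lower) and 6 were higher and 10 lower in Jurkat (GATA3 higher, CD247, CD7 and CD3G lower). Of 16 fibroblast and smooth muscle markers 8 were tested, of which 6 were higher and 1 lower in Molt-4 and 7 were higher and 0 lower in Jurkat. They summed to 173 to 187 FPKM in treated and 135 to 143 FPKM in untreated Molt-4 libraries, and to 124 to 141 FPKM in treated and 54.8 to 61.3 FPKM in untreated Jurkat libraries. Most of the untreated Molt-4 sum came from S100A4 and the muscle gene DES. DES had a mean of 54.7 FPKM in treated and 44.5 FPKM in untreated Molt-4 cells, and of at most 0.113 FPKM in Jurkat. THY1, also a surface protein of some T cells, averaged 28.7 ± 4.61 FPKM in treated and 0.03 ± 0.01 FPKM in untreated Molt-4 cells (log2 change 4.84, adjusted p = 1.23e-11), a change above that of COL1A1. In Jurkat THY1 averaged 101 ± 8.05 FPKM in treated and 43.9 ± 2.22 FPKM in untreated cells. PDGFRB averaged 3.23 ± 0.643 FPKM in treated and 0.10 ± 0.10 FPKM in untreated Molt-4 cells, and 0.893 ± 0.299 FPKM in treated and 0.00333 ± 0.00577 FPKM in untreated Jurkat cells. PDGFRB and the smooth muscle genes CNN1, TAGLN and ACTA2 were called higher in both lines, with log2 changes of 2.18 for CNN1 and 1.06 for TAGLN in Molt-4 and 1.47 for ACTA2 in Jurkat, and TWIST1 rose by 1.62 in Jurkat. Other members of the list, PDGFRA, FAP, DCN, LUM, TWIST2, PRRX1 and POSTN, had group means of at most 0.137 FPKM. The gene lower in Molt-4 was S100A4, with a mean of 67.4 FPKM in treated and 88.2 FPKM in untreated cells. In Jurkat its means were 13.4 FPKM in treated and 7.12 FPKM in untreated cells. Of 12 endothelial markers 5 were tested, of which 5 were higher and 0 lower in Molt-4 and 3 were higher and 1 lower in Jurkat. ESAM and FLT1 led the rises. The gene lower in Jurkat was PECAM1, at 41.5 ± 3.34 FPKM in treated and 78.9 ± 4.80 FPKM in untreated cells (log2 change -0.91, adjusted p = 9.11e-06). CDH5, KDR, TEK and EMCN were at most 0.16 FPKM in any group mean. Of 12 epithelial markers 7 were tested, of which 6 were higher and 0 lower in Molt-4 (CDH1 at 22.3 ± 0.486 FPKM in treated and 1.43 ± 0.839 FPKM in untreated cells) and 2 were higher and 0 lower in Jurkat. KRT8, KRT18, KRT19 and EPCAM were present in untreated Molt-4 cells already, and the list summed to 284 to 293 FPKM in treated and 110 to 116 FPKM in untreated Molt-4 libraries and to at most 4.51 FPKM in any Jurkat library. The part of these other markers in the levels of the collagen and laminin genes was not tested.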

How the data were processed

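RNA sequencing libraries of 2 cell lines, 3 with and 3 without chidamide each, were used. Per the labels' protocols, total RNA was taken with Trizol and libraries were made with a TruSeq RNA kit. The deposited values are FPKM per gene symbol, rounded to 2 decimals, made by the authors. Per the submitters' processing notes the tools were STAR, HTSeq and DESeq2 and the build was hg19; versions, the order of steps, strandedness and how FPKM was computed are not given in the sources used here. Whole reads could not be recovered (35.0% of 1010 low values lay within 0.15 of a whole multiple of an estimated step, where evenly spread values give 30%), so depth is unknown and no counting intervals are given.

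Genes with at least 1 FPKM in at least 3 of 12 libraries were kept (13840). The log2(FPKM + 1) values of all 12 libraries, with a mean for each group, were modelled in limma 3.58.1 in R 4.3.3 (lmFit, eBayes with trend, 8 residual degrees of freedom). The method was also run on simulated data, with changes set only in the Jurkat comparison. These changes were set only in genes with a mean log2 value above 3, so the simulation does not show how changes of lower genes are called. A change on this scale understates that of low genes. P-values were two-sided and adjusted by the Benjamini-Hochberg method over all tested genes of each of 4 comparisons. FPKM levels are mean ± SD. The genes and lists were chosen with earlier results of these data known, and lists are described by counts and medians with no set test. Every gene of the group with a mean of at least 1 FPKM was named, those called in a treatment comparison with at least 2 FPKM in the higher group were given by library, and other lists are shown by up to 4 called genes of the largest change per comparison. Alternatives were a pseudocount of 0.1, other filters, median-of-ratios scaling and quantile normalization, a replicate block, robust empirical Bayes, the compared groups alone, a requirement of a 2-fold change, each library left out, and, chosen after seeing the data, equal totals without 7SL RNA. Promoter windows came from RefSeq, GRCh38.p14, whose build differs from that of the files; overlaps between genes came from GENCODE.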

Additional observations from a re-analysis of the deposited data

Results flagged for a closer look

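The response to chidamide differed between the lines, by the interaction test over all tested genes, for 12 of the 20 tested collagen and laminin genes, 11 with a greater and 1 with a smaller response in Molt-4, beside 19.8% and 12.1% of all tested genes. COL5A1, COL5A3, COL6A2, COL6A3, COL6A5, COL26A1 and LAMC1 passed the filter only with the help of treated libraries. Of the 10 genes that passed it in untreated libraries, 5 had a greater response in Molt-4 and 0 a smaller response, beside 18.5% and 11.7% of all genes of that kind. In each case the value is the response of Molt-4 minus that of Jurkat on the log2(FPKM + 1) scale. Among laminins the difference was 1.82 for LAMB2 and 1.14 for LAMC1. Among fibrillar collagens it was 1.69 for COL5A3, 0.90 for COL27A1, 0.56 for COL11A2 and -0.49 for COL5A1. Among collagen VI chains it was 0.59 for COL6A2, 0.55 for COL6A3 and 0.43 for COL6A5. Among the others it was 1.33 for COL16A1, 1.10 for COL26A1 and 0.82 for COL9A2. COL5A3, COL6A5 and COL26A1 were listed at 0 in all untreated Jurkat libraries. COL6A3 was at most 0.03, LAMC1 at most 0.11, COL5A1 at most 0.19 and LAMB2 at most 0.38 FPKM there. In untreated Molt-4 libraries COL5A3 was at most 0.01, COL6A2 at most 0.03, COL27A1 at most 0.06 and COL16A1 at most 0.12 FPKM. Several calls rest on the setting used. The adjusted p of COL6A3, 0.0468, ran from 0.0126 to 0.951 over the alternatives, and that of COL5A1, 0.0295, from 0.0138 to 0.0724. A pseudocount of 0.1 ended the calls of LAMB2 (adjusted p = 0.0687), LAMC1 (0.638), COL26A1 (0.346) and COL6A5 (0.0854). Quantile normalization ended those of COL11A2 (0.207), COL27A1 (0.0756) and COL6A5 (0.165, with the sign turned).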

How the results depend on the processing

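Of 1692 values of single genes under other settings, 1563 kept their direction and their side of the threshold, 81 lost and 17 gained a call and 31 turned sign. The filters, robust empirical Bayes, the replicate block, the compared groups alone and the 2-fold requirement leave the log2 change as it was. So does leaving out a library of a group outside the comparison. In these settings a value could change its call but not its direction. Leaving out 1 library at a time gave 17 to 19 genes called higher in Molt-4, 10 to 14 in Jurkat, and, for the response difference, 10 to 11 greater and 0 to 1 smaller. Between untreated lines it gave 7 to 8 higher and 5 to 8 lower. Requiring FPKM of at least 5 left 8 genes tested, of which 7 were higher in Molt-4, 4 in Jurkat, 3 greater and 0 smaller in the response difference, and 3 higher and 3 lower between untreated lines. With no filter, 24 of 50 were higher in Jurkat and 6 had a smaller response in Molt-4. Quantile normalization gave 2 lower in Molt-4, 7 higher and 1 lower in Jurkat, and 2 smaller responses. In Jurkat it called 3589 of all tested genes higher and 4039 lower. A pseudocount of 0.1 gave 6 greater and 0 smaller responses. Requiring a 2-fold change left 5 higher in Jurkat, 5 greater and 0 smaller responses and 5 higher between untreated lines. It also left 1713 higher and 185 lower of all tested genes in Molt-4, 1172 and 347 in Jurkat, 928 and 274 for the response difference and 1318 and 1389 between untreated lines.
Sign changes under quantile normalization were those of COL4A2 (-0.46), COL4A5 (-0.40) and COL6A5 (-0.27) in Molt-4, of COL16A1 (-0.10), COL18A1 (-0.30), COL4A2 (-0.091), COL4A5 (-0.021), COL6A5 (-0.053) and COL9A3 (-0.16) in Jurkat, of COL4A2 (-0.37), COL4A5 (-0.38), COL6A5 (-0.21) and LAMB1 (-0.49) in the response difference, and of COL5A1 (-0.17) and COL5A3 (-0.058) between untreated lines. With a pseudocount of 0.1 the response difference turned for COL18A1 (-0.020), COL25A1 (-0.41) and COL9A3 (-0.12). Leaving out a library turned uncalled values only: COL18A1 in Jurkat (-0.058 to 0.53), LAMB2 in Jurkat (-0.13 to 0.098), and the response difference of COL18A1 (-0.17 to 0.41), COL9A3 (-0.074 to 0.34) and LAMB1 (-0.15 to 0.21). The causes were not tested beyond what each setting changes.
Replicate numbers are shared by the groups but pair no samples by any label, and deviations of same-numbered libraries correlated at -0.04 to 0.04. A fit with the replicate number as a block gave 18 higher in Molt-4, 13 in Jurkat, 10 greater and 1 smaller responses, and 8 higher and 7 lower between untreated lines. It ended the call of COL6A3 in the response difference (adjusted p = 0.0651), gave a call of COL1A1 between untreated lines (0.0397) and changed no other call. Depth is unknown, which limits values under about 1 FPKM most.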
